A study of Mus musculus with 11 samples.

Results

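The miR-15, miR-16 and miR-195 family was taken as 7 mature mouse miRNAs that are listed by name: mmu-miR-15a-5p, mmu-miR-15b-5p, mmu-miR-15b-3p, mmu-miR-16-5p, mmu-miR-195a-5p, mmu-miR-195a-3p and mmu-miR-497a-5p (written below without the species prefix). They filled 8 of the 2008 rows of the table, because miR-16-5p has 1 row for each of its hairpins. All 8 rows passed the filter on low counts, which kept 545 rows. miR-322-5p, which shares the seed, is not a member and served for comparison only. The members were listed by name and not by a measured value, although earlier results of these data were known when they were chosen.

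Small RNA was sequenced from mouse spleen CD8+ T cells in 11 libraries. All cells were CD8+ and CD4-, with low CD49d and a GFP signal, and were sorted by CD44 into virtual memory (VM, CD44hi) and true naive (TN, CD44lo) cells, both called stamped by the submitters. The titles add an environment, which gives 3 Dirty_VM, 3 Dirty_TN, 3 Clean_VM and 2 Clean_TN libraries (replicates 2 and 3). Neither dirty nor stamped is defined in the labels, which give no strain, age or sex. Nothing says that replicates came from separate animals, so each p-value measures the spread between these libraries, which may be technical.

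miRNAs of this family act as guides that pair with messenger RNAs through their seed, the bases near the 5′ end, and lower the output of the messages they bind. Their known targets include Bcl2, which protects cells from death, and cyclins that drive entry into the cell cycle. Loss of the miR-15a and miR-16-1 cluster in mice and in human leukaemia is known for the expansion of B cells, and in mouse T cells the family is known to restrain cycling and the formation of memory cells.

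The mature sequences are shown because all 5 members of the 5p arm carry the same seed, so the levels below are of miRNAs that share 1 seed. RefSeq (GRCm38.p6) held all 7 members. Capitals mark bases 2 to 8.
mmu-miR-16-5p: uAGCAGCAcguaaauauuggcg
miR-195a-5p: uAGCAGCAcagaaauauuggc
miR-15a-5p: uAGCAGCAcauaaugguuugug
miR-15b-5p: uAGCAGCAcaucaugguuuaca
miR-497a-5p: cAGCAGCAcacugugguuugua
miR-195a-3p: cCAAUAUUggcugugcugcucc
miR-15b-3p: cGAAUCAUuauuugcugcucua

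Of the 1679 mature mouse miRNAs in the RefSeq table, 10 had the seed AGCAGCA, among them the 5 members of the 5p arm. The 5p arms of miR-15a, miR-15b, miR-16 and miR-195a had the first 9 bases in common, UAGCAGCAC. miR-16-5p and miR-195a-5p were identical at 19 of 21 bases, and the substitutions were G10A and U11G, counted from 1 at the 5′ end with the miR-16-5p base first. miR-15a-5p and miR-15b-5p were identical at 18 of 22 bases, with A12C, G20A, U21C and G22A (miR-15a-5p base first). The 3p arms of miR-15b and miR-195a carry other seeds.

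The members come from 3 pairs of hairpins in mm10 coordinates (GRCm38, GENCODE M21). Mir15a (chr14:61632027-61632110) and Mir16-1 (chr14:61631880-61631972) lie on the minus strand within the noncoding gene Dleu2, 54 bases apart, Mir15a in an intron and Mir16-1 overlapping an annotated exon. Mir15b (chr3:69009772-69009835) and Mir16-2 (chr3:69009902-69009996) lie 66 bases apart on the plus strand in an intron of Smc4, which encodes a condensin subunit. Mir497 (chr11:70234717-70234800) and Mir195a (chr11:70235042-70235135) lie 241 bases apart on the plus strand. The miRNA gene Mir497b overlaps Mir497 on the other strand, and no other annotated gene overlaps Mir195a.

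**Figure D1:**
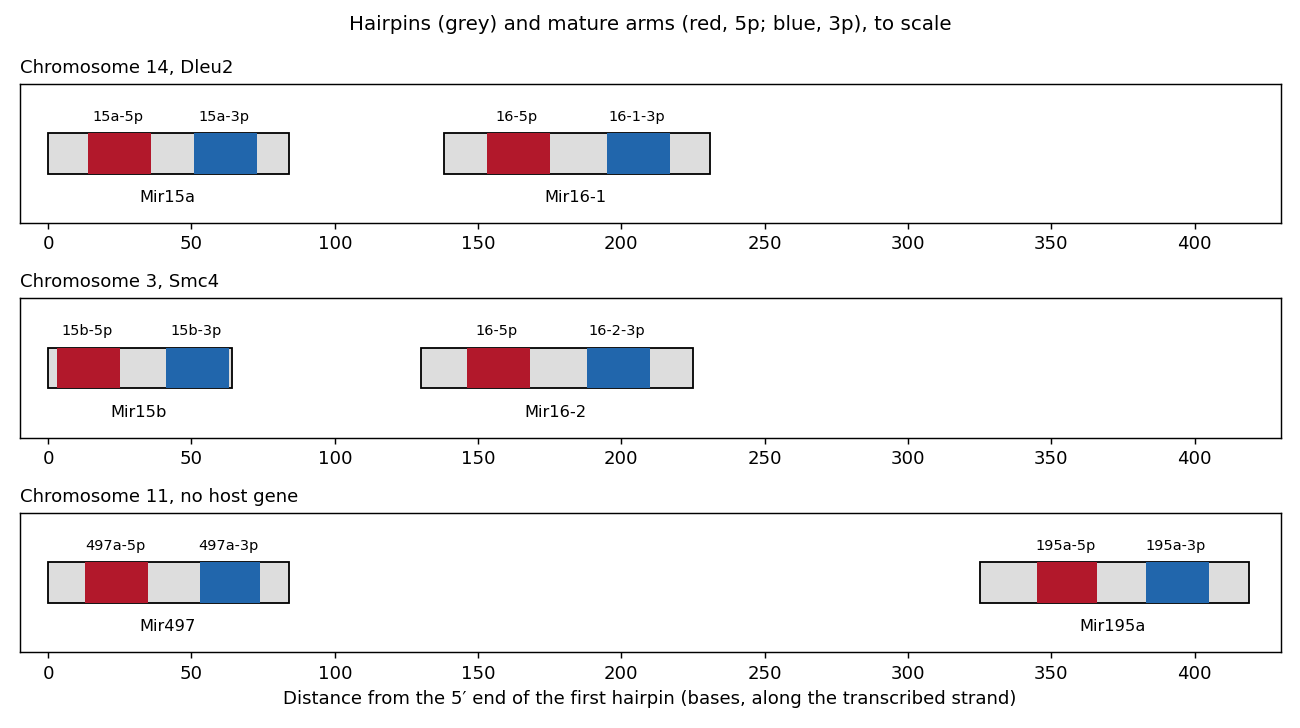
The 3 pairs of hairpins drawn to scale along their transcribed strand, with distance in bases from the 5′ end of the first hairpin. Grey boxes are hairpins, red boxes 5p arms and blue boxes 3p arms. The pairs on chromosomes 14 and 3 are separated by 54 and 66 bases, against 241 bases for the pair on chromosome 11.

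Total estimated counts per library were between 2614396 and 16312004, and 3 counts, the limit that a count of 0 allows, corresponded to 0.18 to 1.23 counts-per-million (CPM), for counting error only. Totals were under 5000000 in 5 libraries, with at least 1 library of each group on either side of that limit. The lymphocyte list of 5 miRNAs summed to between 83100 and 156000 CPM. miR-21a-5p, which activated and memory T cells carry at high levels, rose in VM cells (log2 difference 1.88 ± 0.13 SE averaged over both environments, adjusted p = 6.49e-07, edgeR quasi-likelihood test with Benjamini-Hochberg adjustment). miR-181a-5p, a miRNA of thymocytes and naive T cells, fell by 1.69 ± 0.15 on the same scale (adjusted p = 4.66e-06). Both followed the sorted fractions.

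The family was a small and mostly steady share of each library, and 2 of its members held nearly all of the shared seed. All members summed to 0.86% ± 0.129 of the estimated counts (SD, n = 11), with a range of 0.652% to 1.07%. By group the share was 0.806% ± 0.0863 in Dirty_VM and 0.898% ± 0.164 in Dirty_TN libraries (SD, n = 3 each). It was 0.873% ± 0.193 in Clean_VM (SD, n = 3) and 0.867% ± 0.0976 in Clean_TN libraries (SD, n = 2). These ranges overlapped between all 4 groups.

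Among the 5p arms, miR-16-5p held 80.9% ± 2.96 and miR-15b-5p 18.3% ± 3.08 of the summed counts (SD, n = 11). miR-15a-5p, miR-195a-5p and miR-497a-5p together held 0.844% ± 0.312. That minor share was 0.84% ± 0.0402 in Dirty_VM and 0.631% ± 0.15 in Dirty_TN libraries, and 1.28% ± 0.0361 in Clean_VM against 0.518% ± 0.0099 in Clean_TN libraries. The Clean_VM libraries, at 1.24% to 1.31%, stood above every other library. The rows of miR-16-5p for its 2 hairpins differed by 0.413% to 1.26% in a library, since the mature sequence is the same. Both rows held the same decimals in every library, 0.83 in Dirty_VM replicate 1 for example, so at least some reads were split between rows. The rule for a read that fits both hairpins, and how many were split, is not given in the sources used here. The mir-16-1 row alone may thus hold only part of miR-16-5p. With only that row, miR-16-5p held 68.1% ± 4.16 and miR-15b-5p 30.5% ± 4.42 of the 5p arms.

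In the order of levels, the mir-16-1 row of miR-16-5p led with 3160 ± 720 CPM (SD, n = 11), rank 32 of 2008 rows. miR-15b-5p followed with 1380 ± 183 CPM, and the mir-16-2 row of miR-16-5p was 1.71 to 2.97 times as high within a library. miR-15b-3p had 880 ± 239 CPM and was below miR-15b-5p in 10 of 11 libraries. In the remaining library, Dirty_VM replicate 2, the arms were at 1100 CPM each, so these neighbours were not separated in every library. miR-15a-5p had 46.1 ± 25.2 CPM, and miR-15b-3p was 8.53 to 43.7 times as high within a library. Next came miR-195a-5p with 20.0 ± 9.28 CPM, miR-195a-3p with 6.43 ± 4.23 CPM and miR-497a-5p with 0.698 ± 0.847 CPM. Each of these was below the one before it in 11 of 11 libraries, although the ranges over libraries of these low members overlapped. CPM values carry no length correction, and mature miRNAs are of nearly 1 length.

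Fractional counts show where reads were split between rows. The decimals of miR-15a-5p and miR-15b-5p were equal in 11 of 11 libraries. Those of miR-16-5p and miR-195a-5p were equal, or differed by 0.5, in 11 of 11 libraries (tolerance 0.01). These members of the 5p arm were thus not counted wholly apart, and how many reads were shared is not given in the sources used here. The counts of miR-497a-5p, miR-15b-3p and miR-195a-3p were whole numbers in every library.

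**Figure D2:**
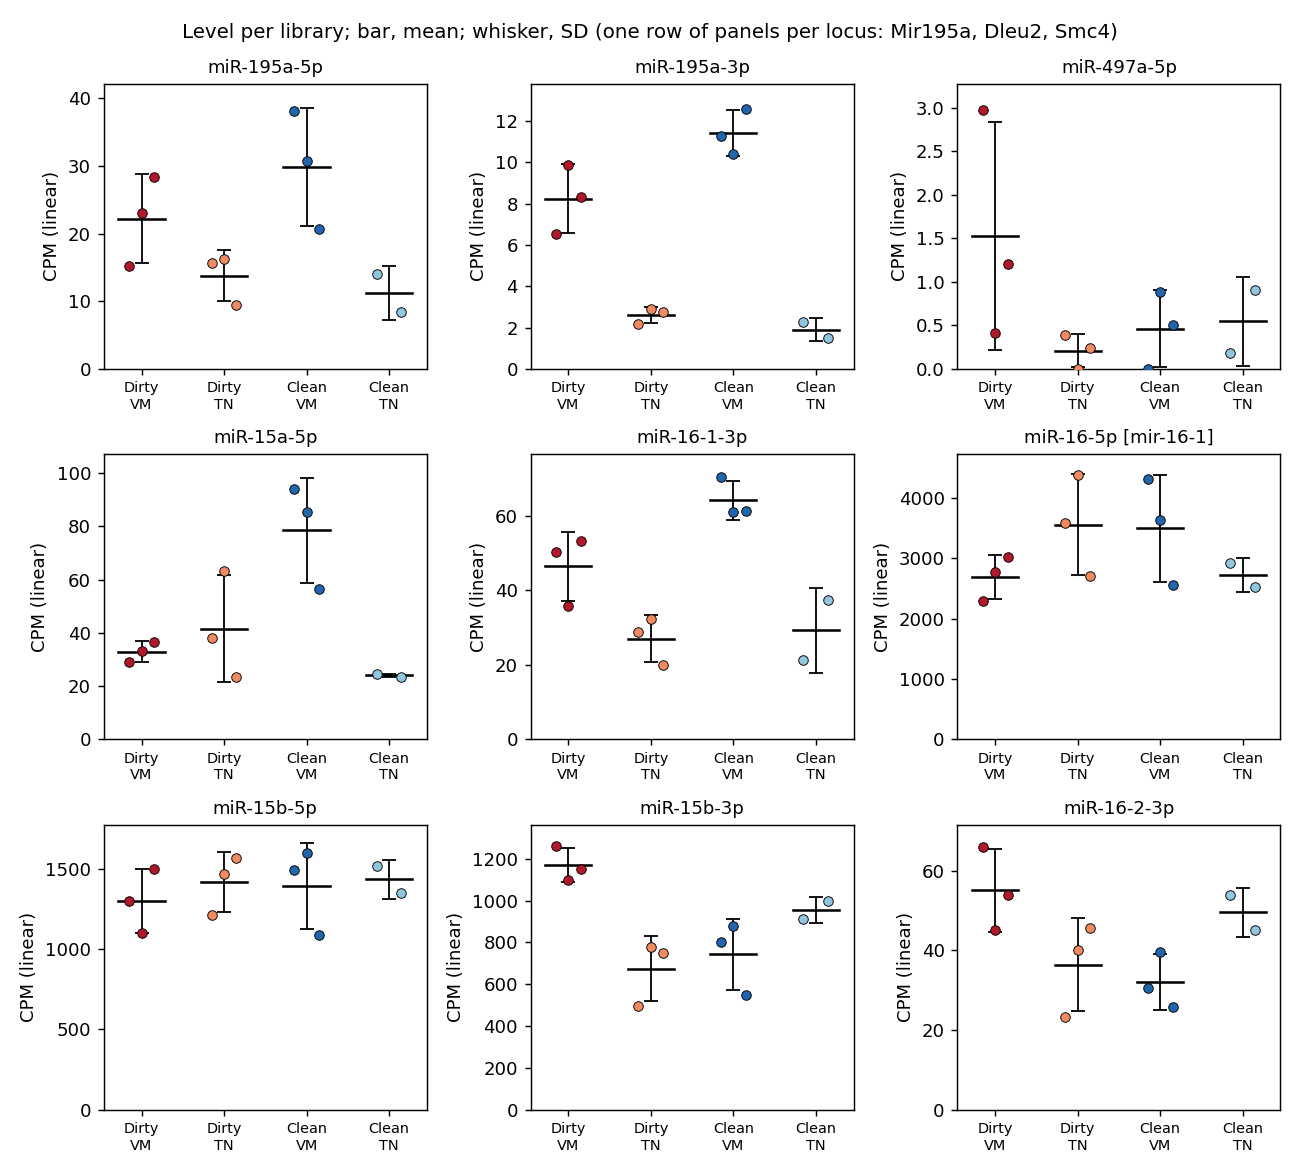
CPM of each member (miR-16-5p as its mir-16-1 row) and of the 3p arms of both miR-16 hairpins in each library, on linear axes. Points are libraries, bars group means and whiskers SDs, and rows of panels follow the locus, although mature miR-16-5p comes from both the Dleu2 and the Smc4 hairpin. Both arms of miR-195a stood higher in VM than in TN libraries on average, miR-15a-5p stood highest in Clean_VM libraries, and miR-15b-3p was above Dirty_TN in every Dirty_VM library but below Clean_TN in every Clean_VM library.

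The first comparison asked which members differed between VM and TN cells. Averaged over both environments, miR-195a-3p and miR-195a-5p rose in VM cells, 2 of the 8 rows, and no member fell. Over all rows tested 23.7% passed, 11.4% in the higher and 12.3% in the lower direction, so 2 of 8 is near the background. The median log2 difference of the members was 0.45, against 0.09 over all rows tested. miR-16-5p and miR-15b-5p, which carry most of the seed, did not pass the test.

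mmu-miR-195a-3p, the less abundant arm of its hairpin, gave the largest log2 difference among the members that passed. It had 6.54, 9.86 and 8.35 CPM in the Dirty_VM libraries and 2.18, 2.88 and 2.76 CPM in the Dirty_TN libraries. Its levels were 11.3, 10.4 and 12.6 CPM in the Clean_VM libraries and 2.28 and 1.51 CPM in the Clean_TN libraries. Every VM library stood above every TN library, in both environments. Over all rows tested, 16.9% likewise kept VM and TN libraries apart in the same direction in both environments. The log2 difference averaged over environments was 2.09 ± 0.24 SE (adjusted p = 3.36e-05, edgeR quasi-likelihood test with Benjamini-Hochberg adjustment). It was 1.66 ± 0.31 in dirty mice (adjusted p = 0.0035, edgeR) and 2.53 ± 0.37 in clean mice (adjusted p = 0.00049, edgeR). These values rest on few reads, with 5 to 34 counts in the TN libraries and 22 to 139 counts in the VM libraries.

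mmu-miR-195a-5p, whose seed is that of miR-16-5p, had 15.2, 23.0 and 28.3 CPM in the Dirty_VM libraries and 15.7, 16.2 and 9.43 CPM in the Dirty_TN libraries. It had 38.1, 30.8 and 20.7 CPM in the Clean_VM libraries and 14.0 and 8.43 CPM in the Clean_TN libraries. The groups overlapped in dirty mice, where 1 Dirty_VM library lay below 2 Dirty_TN libraries, and did not overlap in clean mice. The averaged log2 difference was 1.04 ± 0.25 SE (adjusted p = 0.00945, edgeR), with 0.71 ± 0.33 in dirty mice (adjusted p = 0.202, edgeR) and 1.38 ± 0.39 in clean mice (adjusted p = 0.0278, edgeR). Without Clean_TN replicate 3 the averaged adjusted p was 0.0557 and the clean value 1.08 (adjusted p = 0.221, edgeR). The clean call was also lost without Clean_TN replicate 2 (1.82, adjusted p = 0.0778) or Clean_VM replicate 2 (1.32, adjusted p = 0.0536, edgeR).

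The VM minus TN differences of the arms of miR-195a were unequal in size, but the test of their ratio did not pass. The ratio of miR-195a-5p to miR-195a-3p counts within a library was 2.66 ± 0.625 in Dirty_VM and 5.25 ± 1.82 in Dirty_TN libraries (SD, n = 3 each). It was 2.64 ± 0.899 in Clean_VM (SD, n = 3) and 5.62 ± 0.62 in Clean_TN libraries (SD, n = 2). In log2 units the VM minus TN difference was -0.94 in dirty and -1.15 in clean mice, with a mean of -1.05. A two-sided exact permutation test within environments gave p = 0.01, where 0.005 is the smallest p that its 200 arrangements allow. Adjusted over the 8 ratio tests that p became 0.08, which does not pass, and the Dirty_VM and Dirty_TN ranges met at 3.38. As given above, miR-195a-5p was not counted wholly apart from miR-16-5p. The part of shared reads in this ratio was not tested.

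Other cell types express miR-195a as well, and some of their miRNAs also moved with the VM cells. Of the stromal list (8 rows of 7 miRNAs), 1 row of 7 tested rose averaged over environments, near the 11.4% of all rows tested that rose. It was miR-143-3p (0.80 ± 0.18 SE, adjusted p = 0.00577, edgeR), a miRNA of smooth muscle and fibroblasts. The list summed to 88.7 to 154 CPM in Dirty_VM and 61.1 to 102 CPM in Dirty_TN libraries, and to 73.0 to 124 CPM in Clean_VM and 54.8 to 71.4 CPM in Clean_TN libraries. Both rows of miR-199a-3p and the row of miR-199b-3p had nearly equal levels, with means of 14.0 CPM each in Dirty_VM libraries. They may thus not be separate signals, in the count of rows or in these sums. Of the endothelial list, 1 of 2 rose, miR-126a-3p (0.87 ± 0.24 SE, adjusted p = 0.0208, edgeR). That list summed to 29.6 to 53.0 CPM in Dirty_VM and 15.3 to 29.7 CPM in Dirty_TN libraries, and to 21.7 to 47.7 CPM in Clean_VM and 18.4 to 19.3 CPM in Clean_TN libraries.

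Red cells carry much miR-16-5p and miR-15a-5p. Of the erythroid list, 2 of 4 tested rows rose in VM cells averaged over environments, against 11.4% of all rows tested. They were miR-486a-5p (1.14 ± 0.27 SE, adjusted p = 0.009, edgeR) and miR-486b-5p (1.17 ± 0.25 SE, adjusted p = 0.00499, edgeR). Their mean levels were close, 92.8 and 104 CPM in Clean_VM and 25.0 and 27.8 CPM in Clean_TN libraries, so they may not be separate signals. miR-451a, the most red-cell-restricted of the list, differed by 0.27 ± 0.38 SE (adjusted p = 0.638, edgeR), and miR-144-5p by 1.66 ± 0.76 SE (adjusted p = 0.14, edgeR) at no more than 2.38 CPM. miR-144-3p, which was too low to test, was at 0 in all Dirty_TN libraries and at most 0.501 CPM elsewhere. In clean mice miR-486a-5p and miR-486b-5p rose by 1.88 ± 0.43 and 1.91 ± 0.39 SE (adjusted p = 0.00985 and 0.00617, edgeR). In dirty mice they were at 0.40 ± 0.35 and 0.43 ± 0.33 SE (adjusted p = 0.535 and 0.458, edgeR). The list summed to 122 to 200 CPM in Dirty_VM and 69.2 to 148 CPM in Dirty_TN libraries, and to 129 to 261 CPM in Clean_VM and 59.9 to 76.8 CPM in Clean_TN libraries. The myeloid list, 2 arms of miR-223, reached at most 3.61 CPM. The part of these cell types in the differences of the members was not tested. In sorted cell pools, fewer cells of a type and less RNA per cell cannot be told apart.

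In clean mice 3 of the 8 rows rose in VM cells, miR-15a-5p and both arms of miR-195a, and none fell. Over all rows tested 17.4% passed, 9.72% in the higher and 7.71% in the lower direction. mmu-miR-15a-5p had 93.9, 85.4 and 56.4 CPM in the Clean_VM libraries and 24.5 and 23.5 CPM in the Clean_TN libraries. The groups did not overlap, as was the case for 4 of the 8 member rows in all and for 52.7% of all rows tested. The log2 difference of miR-15a-5p was 1.71 ± 0.37 SE (adjusted p = 0.00879, edgeR). With only 2 Clean_TN libraries, leaving out replicate 2 gave 1.74 (adjusted p = 0.0899, edgeR) and leaving out replicate 3 gave 1.68 (adjusted p = 0.0865, edgeR). The red-cell miRNAs miR-486a-5p and miR-486b-5p also rose in clean mice, as given above, while miR-451a was at 0.18 ± 0.57 SE (adjusted p = 0.849, edgeR), and their part in the miR-15a-5p difference was not tested.

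In dirty mice 2 of the 8 rows rose in VM cells, miR-195a-3p and miR-15b-3p, and none fell. Over all rows tested 12.1% passed, 6.24% in the higher and 5.87% in the lower direction. VM and TN libraries did not overlap in 3 of the 8 rows, against 30.5% of all rows tested. The third row was miR-497a-5p, which was close to the detection limit. Its separation rests on 1 count (0.411 CPM) in Dirty_VM replicate 2 against 3 counts (0.385 CPM) in Dirty_TN replicate 1. miR-15a-5p was not among the 3 rows, with 28.9, 33.3 and 36.6 CPM in the Dirty_VM libraries and 38.0, 63.4 and 23.4 CPM in the Dirty_TN libraries. The Dirty_VM values lay within the range of the Dirty_TN values. Its log2 difference was -0.32 ± 0.32 SE (adjusted p = 0.579, edgeR), and without Dirty_TN replicate 2 it was 0.11. Averaged over environments miR-15a-5p was at 0.69 ± 0.24 SE (adjusted p = 0.0531, edgeR). DESeq2, which called 26.4% of all rows in that contrast, put it at 0.67 with an adjusted p of 0.0274, and without Dirty_TN replicate 2 edgeR gave 0.91 (adjusted p = 0.00735).

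mmu-miR-15b-3p, the 3p arm of the Smc4 intron hairpin, had 1260, 1100 and 1150 CPM in the Dirty_VM libraries and 497, 780 and 749 CPM in the Dirty_TN libraries. It had 801, 877 and 549 CPM in the Clean_VM libraries and 910 and 1000 CPM in the Clean_TN libraries. Every Dirty_VM library was above every Dirty_TN library, and every Clean_VM library was below both Clean_TN libraries. Such opposite separation occurred in 10 of the 545 rows tested (1.83%). The log2 difference was 0.79 ± 0.22 SE in dirty mice (adjusted p = 0.0317, edgeR) and -0.37 ± 0.24 in clean mice (adjusted p = 0.317, edgeR). The dirty call was lost without any 1 of 7 libraries, namely Clean_TN replicates 2 and 3, Clean_VM replicate 1, Dirty_TN replicate 1 and all 3 Dirty_VM replicates. The value was lowest without Dirty_TN replicate 1, at 0.52 (adjusted p = 0.152, edgeR).

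mmu-miR-15b-5p, the other arm of that hairpin, had 1300, 1100 and 1500 CPM in the Dirty_VM libraries and 1210, 1470 and 1570 CPM in the Dirty_TN libraries. It had 1490, 1600 and 1090 CPM in the Clean_VM libraries and 1520 and 1350 CPM in the Clean_TN libraries. The groups overlapped in both environments. The log2 difference was -0.12 ± 0.20 SE in dirty mice (adjusted p = 0.76, edgeR) and -0.05 ± 0.22 in clean mice (adjusted p = 0.898, edgeR).

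The 5p to 3p ratio of miR-15b within a library, which does not depend on depth, was 1.11 ± 0.17 in Dirty_VM and 2.14 ± 0.279 in Dirty_TN libraries (SD, n = 3 each). It was 1.89 ± 0.0874 in Clean_VM (SD, n = 3) and 1.51 ± 0.226 in Clean_TN libraries (SD, n = 2). The ratio was 0.995 to 1.31 in Dirty_VM and 1.88 to 2.44 in Dirty_TN libraries, and 1.82 to 1.99 in Clean_VM against 1.35 to 1.67 in Clean_TN libraries. VM libraries were thus lower than TN libraries in dirty mice and higher in clean mice, without overlap in either. Averaged over environments, the VM minus TN difference was -0.31 log2 units (p = 0.205 by the same exact permutation test and 0.547 once adjusted over the 8 tests). The change of the ratio between environments was not itself tested.

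**Figure D3:**
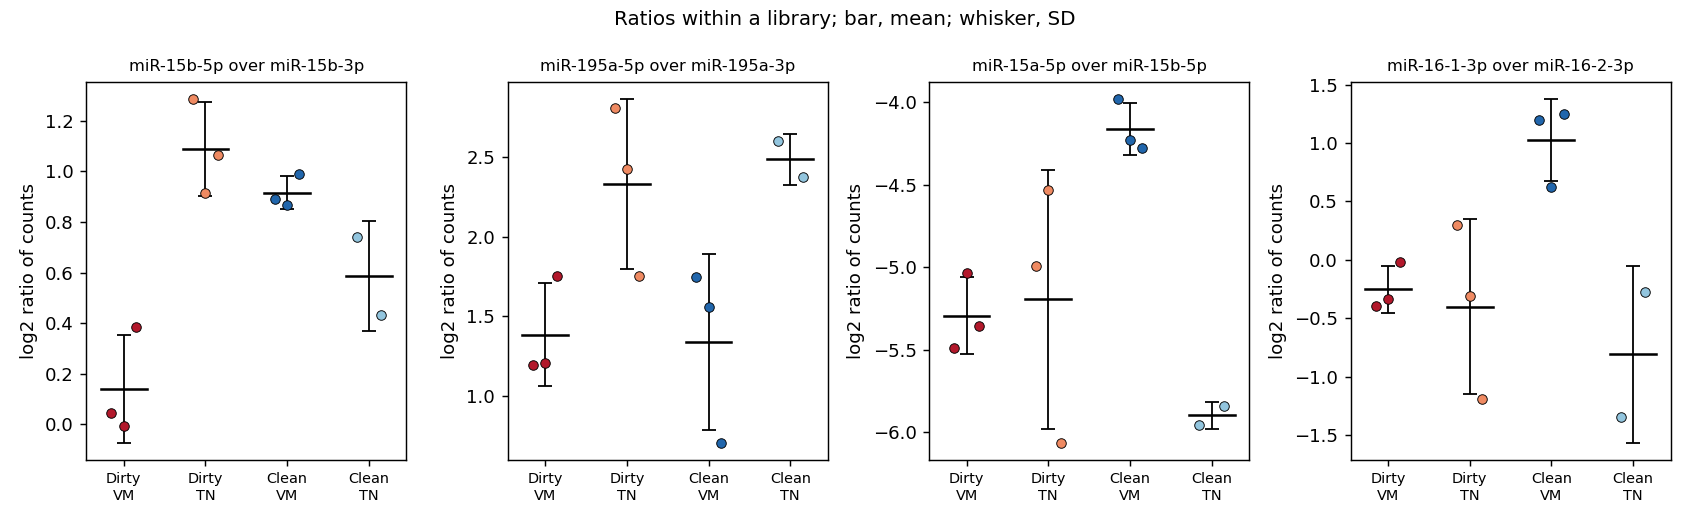
Ratios of counts within a library on a log2 scale, with 0.5 count added to each term. Points are libraries, bars group means and whiskers SDs. The miR-15b ratio was lowest in Dirty_VM libraries, the miR-195a ratio was lower in VM than in TN libraries on average, and the miR-15a-5p to miR-15b-5p and miR-16-1-3p to miR-16-2-3p ratios were highest in Clean_VM libraries.

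mmu-miR-16-5p, the most abundant member, had 2300, 2770 and 3020 CPM in the Dirty_VM libraries and 3580, 4390 and 2710 CPM in the Dirty_TN libraries on its mir-16-1 row. It had 4320, 3630 and 2560 CPM in the Clean_VM libraries and 2920 and 2530 CPM in the Clean_TN libraries. The groups overlapped in both environments. The log2 difference was -0.40 ± 0.23 SE in dirty mice (adjusted p = 0.307, edgeR), 0.36 ± 0.26 in clean mice (adjusted p = 0.345, edgeR) and -0.02 ± 0.17 averaged (adjusted p = 0.942, edgeR). The mir-16-2 row differed from these by at most 0.01.

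Since the mature miR-16-5p cannot be assigned to a hairpin, the 3p arms, which differ in sequence, give the only separate values for its hairpins. Of the 4 other arms of the family's hairpins, 3 were tested, and 1 rose in VM cells averaged over environments, against 11.4% of all rows tested. The arm of the Dleu2 locus, miR-16-1-3p, had 50.3, 35.7 and 53.2 CPM in Dirty_VM and 28.7, 32.3 and 20.0 CPM in Dirty_TN libraries. It had 70.3, 60.9 and 61.2 CPM in Clean_VM and 21.2 and 37.3 CPM in Clean_TN libraries. VM libraries stood above TN libraries in both environments, where 16.9% of all rows tested were likewise kept apart in 1 direction. The averaged log2 difference of miR-16-1-3p was 0.97 ± 0.20 SE (adjusted p = 0.00375, edgeR). It was 0.79 ± 0.27 in dirty mice (adjusted p = 0.0768, edgeR) and 1.14 ± 0.30 in clean mice (adjusted p = 0.0223, edgeR). Without Clean_TN replicate 2 the clean difference was 0.78 (adjusted p = 0.231, edgeR), and with library totals as the only scaling it was 0.93 (adjusted p = 0.0523) and the dirty one 0.89 (adjusted p = 0.047, edgeR). DESeq2, which called 17.9% of the 492 rows it adjusted in dirty mice, put the dirty difference at 0.80 (adjusted p = 0.0315). With only libraries under 5000000 counts the averaged difference was 0.57 (adjusted p = 0.401, edgeR).

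The arm of the Smc4 locus, miR-16-2-3p, had 66.0, 45.2 and 54.0 CPM in Dirty_VM and 23.3, 40.1 and 45.7 CPM in Dirty_TN libraries. It had 30.6, 39.6 and 25.7 CPM in Clean_VM and 53.8 and 45.2 CPM in Clean_TN libraries. Clean_VM libraries were below Clean_TN libraries, while the groups of dirty mice overlapped by 1 library on each side. The log2 difference was 0.60 ± 0.27 SE in dirty mice (adjusted p = 0.189, edgeR) and -0.63 ± 0.30 in clean mice (adjusted p = 0.172, edgeR). Its signs were those of miR-15b-3p from the same intron, but neither difference passed the test. miR-15a-3p was between 0 and 2.06 CPM, and miR-497a-3p had no count in any of the 11 libraries.

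The ratio of miR-16-1-3p to miR-16-2-3p, chosen after its values were seen and so given without a test, was 0.846 ± 0.121 in Dirty_VM and 0.825 ± 0.397 in Dirty_TN libraries (SD, n = 3 each). It was 2.07 ± 0.463 in Clean_VM (SD, n = 3) and 0.611 ± 0.306 in Clean_TN libraries (SD, n = 2). The 3 Clean_VM libraries, at 1.54 to 2.38, lay above the other 8. The ratio of miR-15a-5p to miR-15b-5p, which sets the same loci against each other, was 0.0257 ± 0.00425 in Dirty_VM and 0.0299 ± 0.0142 in Dirty_TN libraries. It was 0.0561 ± 0.00625 in Clean_VM and 0.0168 ± 0.000932 in Clean_TN libraries. VM minus TN was -0.10 in dirty and 1.74 in clean mice in log2 units, with a mean of 0.82 (p = 0.115 by the exact permutation test and 0.46 once adjusted over the 8 tests).

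mmu-miR-497a-5p, the hairpin neighbour of miR-195a, was close to the detection limit with 56 counts in all. It had 10, 1 and 20 counts in Dirty_VM, 3, 0 and 3 in Dirty_TN, 0, 9 and 5 in Clean_VM and 2 and 3 in Clean_TN libraries. No difference passed the test, with a smallest adjusted p of 0.189 in dirty mice (edgeR), and at these counts a difference was not detectable. In the 9 libraries with a count of it, the ratio of miR-195a-5p to miR-497a-5p ran from 4.9 to 61.8. In log2 units the VM minus TN difference of that ratio was -1.65 in dirty and 1.66 in clean mice. Each of these rests in part on a library at 0 counts, where the 0.5 count added to each term sets the ratio, so no test of it is given.

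**Figure D4:**
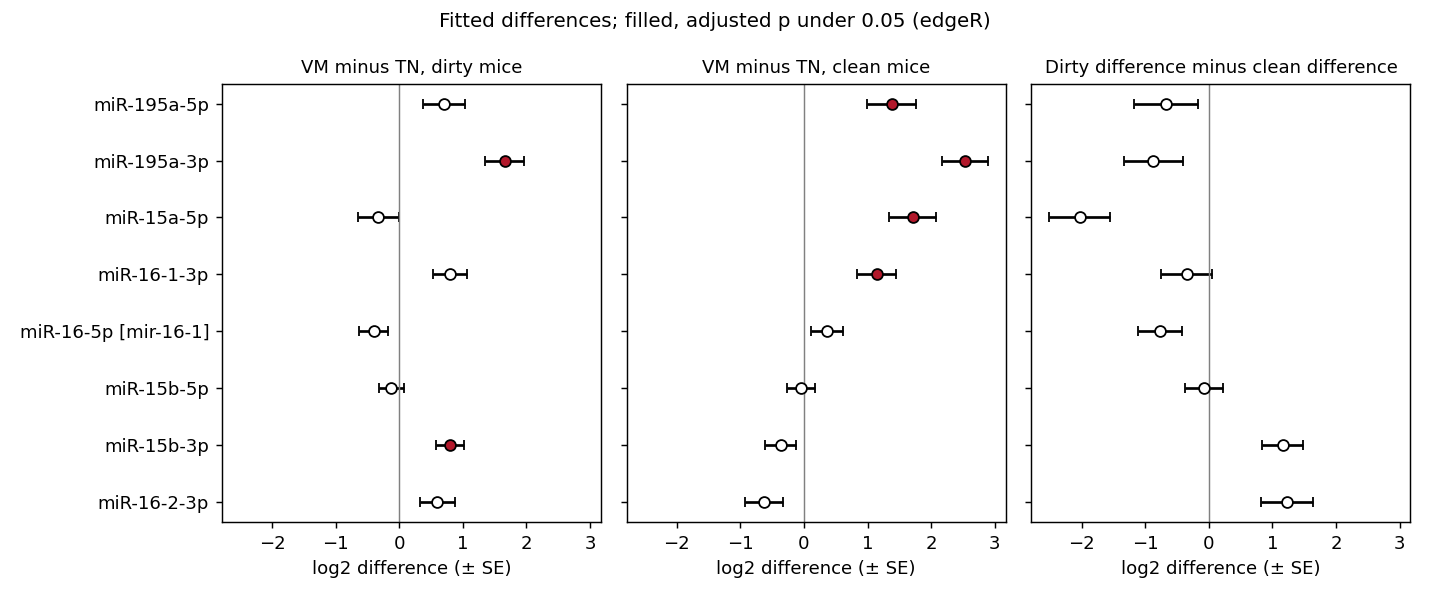
Fitted log2 differences ± SE from edgeR for the members (miR-16-5p as its mir-16-1 row, miR-497a-5p left out for its low counts) and the 3p arms of both miR-16 hairpins. Filled points have an adjusted p under 0.05. Filled points are miR-195a-3p and miR-15b-3p in dirty mice, and both arms of miR-195a, miR-15a-5p and miR-16-1-3p in clean mice, and no point is filled for the difference between the environments.

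The second comparison set dirty against clean mice within each cell type. By edgeR none of the 8 rows passed averaged over cell types, in VM cells or in TN cells, and the background was 0.0% in all 3 contrasts. At an unadjusted p under 0.05 there were 0 of 8 rows averaged, 2 of 8 in VM cells and 0 of 8 in TN cells, against 5.14%, 14.9% and 6.97% of all rows tested. In VM cells these were miR-15a-5p, at -1.25 ± 0.32 SE (adjusted p = 0.128, edgeR), and miR-15b-3p, at 0.66 ± 0.22 SE (adjusted p = 0.201, edgeR). All Dirty_VM libraries were below all Clean_VM libraries for miR-15a-5p, and above them for miR-15b-3p. Together with miR-195a-3p, which was lower in each Dirty_VM library, 3 of 8 rows did not overlap, against 21.1% of all rows tested. DESeq2 called 0 of 8 rows averaged and in TN cells, and 1 member in VM cells, miR-15a-5p (-1.30, adjusted p = 0.00311), where it called 8.46% of the rows it adjusted. In edgeR, miR-15a-5p passed without Dirty_TN replicate 3 (-1.25, adjusted p = 0.0185). That library is in neither group compared, and the share of all rows that passed in that fit is not given here.

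In TN cells the log2 difference was 0.78 ± 0.36 SE for miR-15a-5p and -0.50 ± 0.24 SE for miR-15b-3p (adjusted p = 0.559 each, edgeR). miR-15b-3p was lower in each Dirty_TN library than in both Clean_TN libraries, 1 of the 8 rows without overlap, against 23.3% of all rows tested. The 3p arms of both miR-16 hairpins differed by -0.11 ± 0.30 SE (miR-16-1-3p) and -0.45 ± 0.30 SE (miR-16-2-3p) in TN cells (adjusted p = 0.912 and 0.66, edgeR).

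The third comparison was the interaction, that is, the VM minus TN difference of dirty mice less that of clean mice. No member passed in edgeR, where the background was also 0.0%, and 4 of 8 rows had an unadjusted p under 0.05, against 17.1% of all rows tested. Among the 4 were both rows of miR-16-5p, which are nearly equal and share 1 mature sequence, so that count holds 1 miRNA on 2 rows. For miR-15a-5p the dirty difference minus the clean difference was -2.03 ± 0.49 SE (adjusted p = 0.095, edgeR). The red-cell miRNAs stood at -1.49 ± 0.54 (miR-486a-5p), -1.48 ± 0.50 (miR-486b-5p) and 0.19 ± 0.76 SE (miR-451a; adjusted p = 0.21, 0.185 and 0.955, edgeR). For miR-15b-3p it was 1.16 ± 0.33 SE (adjusted p = 0.11, edgeR), and both rows of miR-16-5p were at -0.76 ± 0.34 and -0.77 ± 0.34 SE (adjusted p = 0.271 each, edgeR). Of the arms outside the members, miR-16-2-3p was at 1.23 ± 0.41 SE (adjusted p = 0.166, edgeR).

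DESeq2 called 15.2% of the 270 rows it adjusted in this contrast. Among them were miR-15a-5p (-2.01, adjusted p = 0.00195) and miR-15b-3p (1.18, adjusted p = 0.0107), with miR-16-2-3p outside the members (1.25, adjusted p = 0.0418). Without Dirty_TN replicate 3, edgeR also passed miR-15a-5p (-2.32, adjusted p = 0.00245), miR-15b-3p (1.24, adjusted p = 0.0315) and miR-16-2-3p (1.44, adjusted p = 0.0373). The share of all rows that passed in that fit is not given here. miR-195a-3p and miR-195a-5p were at -0.87 ± 0.46 and -0.67 ± 0.50 SE (adjusted p = 0.348 and 0.498, edgeR). The comparisons share libraries, so their values stand side by side and are not separate support for each other.

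Other miRNAs with the same or a related seed were low, fell or did not pass the test. Of a list of 7 rows outside the members, RefSeq gave the seed AGCAGCA for 5, another seed for miR-497b, and miR-1907 was not matched. In that list only miR-322-5p passed the count filter, with 1.04 ± 0.711 CPM (SD, n = 11) and a VM minus TN difference of -1.47 ± 0.68 SE (adjusted p = 0.143, edgeR). miR-503-5p, which shares most of the seed, was at -1.0 (adjusted p = 0.121, edgeR). Of the 4 tested rows with related seeds, none rose and 2 fell, both rows of miR-103-3p, whose seed is offset by 1 base from that of the family. These fell by 0.63 ± 0.21 and 0.62 ± 0.21 on the log2 scale (adjusted p = 0.0473 and 0.0482, edgeR). By comparison, 12.3% of all rows tested fell and 11.4% rose in VM cells averaged over environments.

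The rows most like the leading members over the 11 libraries were found among 257 rows with a mean of 10 CPM or more, by Pearson's r of log2(CPM + 1). For miR-16-5p they were let-7k (0.843), miR-674-5p (0.826) and let-7b-5p (0.75). For miR-195a-5p they were miR-328-3p (0.956), miR-139-3p (0.879) and miR-155-5p (0.867). All rows share the libraries' depth and scaling, and the values are descriptions.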

How the data were processed

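The deposited table held estimated counts (expected counts) per mature miRNA and hairpin, as the authors made them, in 2128 rows and 11 columns. The genome build was mm10, per the submitters' processing notes. Not given in the sources used here: the aligner, the counting program and how reads that fit several hairpins were counted. Per the labels' protocols, 10000 sorted cells (purity over 95%) and 60 to 100 ng of RNA were used, with inserts of about 18 to 35 bp.

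Rows with an identical name and values were kept once (120 removed, 0.889% of counts). Counts were rounded. edgeR 4.0.16 (filterByExpr, TMM, glmQLFit robust, glmQLFTest) fitted all 11 libraries with 1 mean per group. Rows tested numbered 545 (99.99% of counts), p-values were two-sided and adjusted by Benjamini-Hochberg over them, with a threshold of 0.05, and the script was tested on simulated data. SEs were worked back from the F statistic. CPM values use TMM-scaled totals. Ratios within a library were tested by exact permutation within environment or cell type, adjusted over 8 tests. All 7 members and 3 fixed lists (other arms, other miRNAs listed for the seed, related seeds) were named. Members, lists and tests were chosen with earlier results of these data known.

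Alternatives were DESeq2 1.42.0, limma-voom (limma 3.58.1), other scalings and filters, rows summed per miRNA, replicate blocks, a depth term, libraries under or over 5000000 counts only, only the groups compared, and each library left out in turn. Sequences came from RefSeq, places from GENCODE M21. Replicate libraries differed by more than sampling noise in every group. The chi-square per degree of freedom was 1804 between Dirty_TN replicates 1 and 3, against 37.1 to 535 for the other pairs.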

Additional observations from a re-analysis of the deposited data

Results flagged for a closer look

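miR-15b-3p stood out because its VM libraries lay above the TN libraries in dirty mice and below them in clean mice, without overlap in either. The dirty difference minus the clean difference was 1.16 on the log2 scale (adjusted p = 0.11, edgeR quasi-likelihood test), and DESeq2 gave 1.18 (adjusted p = 0.0107). Restricted to libraries over 5000000 counts the value was 1.32 and to those under 5000000 1.00 (adjusted p = 0.92 and 0.594, edgeR).

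The ratio of miR-15b-5p to miR-15b-3p went opposite ways in the environments, with a VM minus TN difference of -0.95 in dirty and 0.33 in clean mice, which differ by -1.28 log2 units. That difference of the ratio was not tested. Of its terms, miR-15b-5p had a VM minus TN difference in dirty mice less that in clean mice of -0.08 ± 0.29 SE (adjusted p = 0.954, edgeR). Groups of 2 or 3 libraries were not tested for an outlying value, and the values without each library in turn are given with the results.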

How the results depend on the processing

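Of the fold changes recomputed for the members and 2 further arms (miR-16-1-3p and miR-16-2-3p), 1313 kept direction and side of the threshold, 35 lost a call, 22 gained one and 76 changed sign, and the cause was not tested. No fold change that passed with the settings used in the text changed sign. miR-195a-3p passed averaged over environments in 23 of 23 alternatives (1.94 to 2.29), and in clean and dirty mice in 22 of 24 each. With only libraries under 5000000 counts 1 member passed averaged, 0 in dirty mice and 1 in the interaction. With only libraries over that limit 1 passed averaged, and 0 in clean and in dirty mice, with fewer libraries in both. DESeq2 called 1 member for dirty against clean VM cells and 2 in the interaction, no filter beyond 1 count gave 1 and 2, and the stricter filter gave 1 in the interaction. Fitting only the groups compared gave 1 in dirty mice and 1 for dirty against clean VM cells. Apart from DESeq2, the share of all rows that passed is not given for these alternatives or for the fits without 1 library. Those counts of members thus stand without a background.

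Same-numbered libraries did not clearly pair. The correlations of their deviations within an environment ran from -0.498 to 0.374, with 3 of 5 over 0.1, and not every library was closest to its own number. Deviations were taken within groups of 2 or 3 libraries, so this check cannot exclude a pairing. With the replicate block, alone or per environment, 1 member passed in dirty mice in place of 2, and miR-15b-3p had an adjusted p of 0.0675 and 0.0865 (edgeR). In clean mice miR-195a-5p had 0.0582 and 0.0874, and miR-16-1-3p 0.062 and 0.0789 (edgeR). Under the block miR-16-2-3p averaged was 0.0224, and 0.0044 per environment, while dirty against clean averaged gave -0.0007 for miR-16-5p, 0.0094 for miR-195a-3p and -0.0432 for miR-497a-5p.

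Other sign changes were of values that passed in neither fit. With libraries over 5000000 only, VM against TN was -0.0638 for miR-16-5p in clean mice, and 0.21 for miR-15a-5p and 0.0444 for miR-15b-5p in dirty mice. There, dirty against clean gave -0.0191 for miR-15b-3p, -0.0665 for miR-16-5p and -0.042 for miR-16-2-3p averaged. In TN cells it gave -0.0449 for miR-16-5p, -0.32 for miR-195a-5p, -0.0066 for miR-195a-3p, 0.58 for miR-497a-5p and 0.0401 for miR-16-1-3p. In VM cells it gave 0.11 for miR-15b-5p and 0.0867 for miR-195a-5p, and the interaction gave 0.37 and 0.41 for these. With libraries under 5000000 only, miR-497a-5p was -4.70 in clean mice, miR-195a-3p 0.22 for dirty against clean averaged, and miR-15b-5p 0.072 in TN cells. With library totals as the only scaling, miR-497a-5p was -0.024 in clean mice, miR-15b-5p 0.0193 for dirty against clean VM cells and 0.20 in the interaction, against 0.0011 with the stricter filter. That scaling moved the median of all rows to 0.24 in the interaction and -0.13 in clean mice, against -0.05 and 0.08 with TMM. For dirty against clean averaged, miR-16-5p was -0.0577 with DESeq2 and with its size factors in edgeR, -0.0374 with library totals, -0.0511 without a filter, -0.0396 with the stricter filter, -0.076 with rows summed and -0.0079 with depth as a term. With rows summed miR-15b-3p was -0.0021.

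Leaving out 1 library at a time, 1 to 3 members passed averaged and in clean mice, 1 to 2 in dirty mice, 0 to 1 for dirty against clean VM cells and 0 to 2 in the interaction. VM against TN ranged from -0.11 to 0.0704 for miR-16-5p and -0.18 to 0.0883 for miR-16-2-3p averaged, from -0.19 to 0.0535 for miR-15b-5p and -0.79 to 1.42 for miR-497a-5p in clean mice, and from -0.61 to 0.11 for miR-15a-5p in dirty mice. Dirty against clean averaged ranged from -0.0752 to 0.11 for miR-15b-3p, -0.15 to 0.0859 for miR-16-5p, -0.25 to 0.14 for miR-195a-5p, -0.20 to 0.15 for miR-195a-3p and -0.15 to 0.96 for miR-497a-5p. In TN cells it ranged from -0.10 to 0.0633 for miR-15b-5p, -0.0383 to 0.69 for miR-195a-5p, -1.84 to 0.37 for miR-497a-5p and -0.48 to 0.34 for miR-16-1-3p. The interaction ranged from -0.26 to 0.0044 for miR-15b-5p and -0.80 to 0.015 for miR-16-1-3p. The miR-195a arm ratio ranged from -1.19 to -0.89 for VM minus TN, with an exact permutation p of 0.01 to 0.05, and from -0.21 to 0.0901 for dirty minus clean. The ratio of miR-195a-5p to miR-497a-5p, set in 2 libraries by the 0.5 count added, ranged from -0.73 to 0.74 and from -1.21 to 0.26, and that of miR-15a-5p to miR-15b-5p from 0.60 to 0.99 and from -0.38 to 0.0026. Where a group was left with 1 library, its spread was taken from the others.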
